A study of Mus musculus with 4 samples.

Results

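Cornified envelope genes encode the tough protein shell that replaces the plasma membrane of a keratinocyte as it dies, and 10 of them were followed on arrays of mammary basal cells. They are Sprr1a, Sprr1b, Scel, Ivl, Lor, Flg, Tgm1, Tgm3, Evpl and Ppl, and every probe set that the platform annotation assigns to exactly 1 of them was taken. This gave 15 probe sets of the 45037 that are not array controls, and 10 of the 18193 genes with a value. The genes were chosen by name with the array values of the diet contrast already known, so their own differences are a description here and support nothing. The soy protein isolate (SPI) group had 2 arrays and the casein (CAS) control group had 2. All 4 arrays came from freshly sorted mammary basal cells of mice of the strain B66SJL/HEV/J, a mixed background, that carry MMTV-Wnt1, in which a mouse mammary tumour virus promoter drives the Wnt1 ligand, chiefly in mammary epithelium, so neither group is free of the transgene. The sample titles call the cells MaSC-enriched, that is, enriched for mammary stem cells. Such a gate holds stem cells, myoepithelial cells and their progenitors together. Some markers of fibroblast, luminal and endothelial cells also differed between the diets, as given further on. Neither age nor the number of animals behind an array is given in the labels, and p-values therefore measure the spread between 4 samples, a spread that may be technical.

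In stratified epithelium the envelope is built from the inside. Envoplakin (Evpl) and periplakin (Ppl) lay down a scaffold under the membrane, involucrin (Ivl), small proline-rich proteins (Sprr), sciellin (Scel) and loricrin (Lor) are added to it, and transglutaminases such as Tgm1 and Tgm3 weld them with bonds between glutamine and lysine side chains. Filaggrin (Flg) bundles keratin filaments inside the dying cell. In the mammary gland some of these genes are known from squamous metaplasia and from stressed epithelium. The deposited values are log2 values centred on the median of each probe set, so they hold no levels, and the middle values of the 4 arrays are nearly always equal and opposite.

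The largest differences among the 15 probe sets were those of the cross-linked proteins Scel and Sprr1a, followed by the scaffold protein Evpl, all lower in SPI. With 2 arrays per diet, Scel stood 2.90-fold lower (95% interval 2.47 to 3.40), Sprr1a 2.73-fold lower (1.85 to 4.02) and Evpl 1.74-fold lower (1.36 to 2.23). For the other 12 probe sets the differences lay between -0.21 and 0.34 on the log2 scale, and every probe set of Lor, Flg and Ivl, well-known products of keratinocyte differentiation, was among these 12. In limma over all probe sets with Benjamini-Hochberg adjustment, 1 of the 15 passed at 0.05, Scel 1422837_at, where 1.5% of all 45037 did (1.25% as lower and 0.249% as higher in SPI). No reading is made of that count, because the genes were chosen with this contrast known. When each gene had 1 value, 2 of 10 member genes passed (Scel and Sprr1a), where 3.77% of all 18193 genes did. Sprr1a passed only as a gene (limma adjusted p = 0.0368, against 0.0594 over all probe sets). The gene value of Scel is that of 1422837_at alone. With any 1 of the 4 arrays left out 0 of all probe sets and 0 of all genes passed in limma, the genes of every list given further on included, while 4882 to 6513 probe sets had an unadjusted p under 0.05 there. With arrays centred on the hybridization controls, which moved the median of all probe sets from 0.023 to 0.19, the calls over all probe sets were 2552 higher and 738 lower, against 112 higher and 564 lower as deposited. Over all 18193 genes they were 2211 higher and 510 lower, against 151 higher and 535 lower. This centring adds 0.17 to every difference, so the medians given further on for other envelope proteins, regulators and barrier lipid genes become positive under it.

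**Figure D1:**
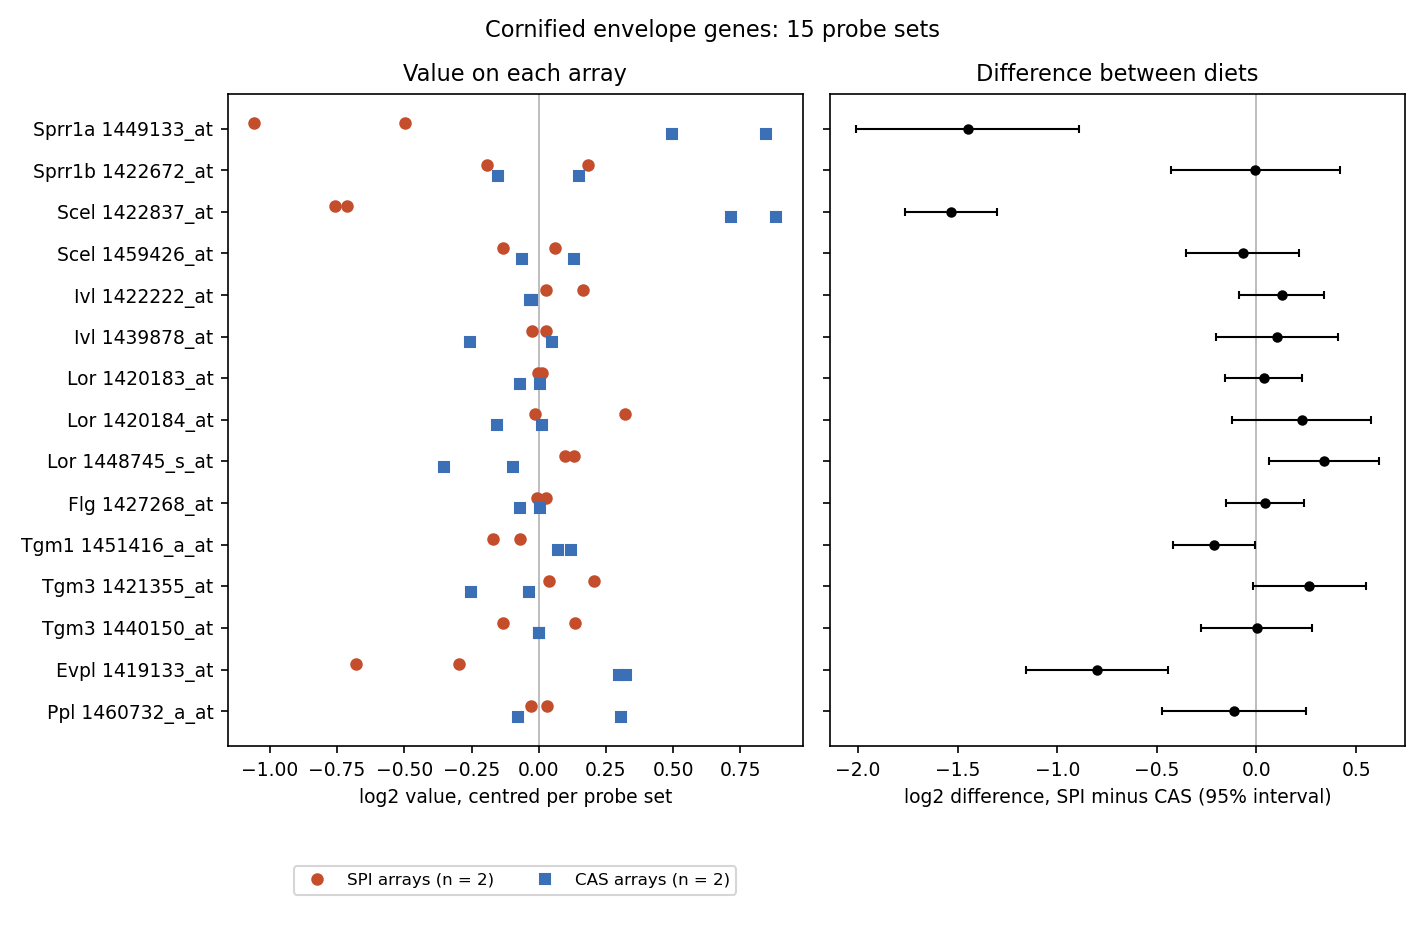
Left, the centred log2 value of each of the 15 probe sets on the SPI arrays (circles, n = 2) and the CAS arrays (squares, n = 2). Right, the log2 difference SPI minus CAS with its 95% interval from limma. Scel 1422837_at, Sprr1a and Evpl sit at -1.53, -1.45 and -0.80, and the other 12 probe sets lie between -0.21 and 0.34.

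Promoter sequences are shown for Scel and Sprr1a, which had the largest differences, and for Sprr1b and Ivl, the members nearest to Sprr1a on the chromosome, whose differences were near 0. They are RefSeq windows of GRCm38.p6, 250 bases before to 50 after the annotated start, given 5′ to 3′ on the gene's strand. They cover chr14:103513091-103513390 on the plus strand for Scel, and on the minus strand chr3:92485832-92486131 for Sprr1a, chr3:92438730-92439029 for Sprr1b and chr3:92573686-92573985 for Ivl. Capitals mark TGANTCA, the core recognised by AP-1 factors, and CACCC or its reverse complement GGGTG, a core recognised by KLF factors.
Scel: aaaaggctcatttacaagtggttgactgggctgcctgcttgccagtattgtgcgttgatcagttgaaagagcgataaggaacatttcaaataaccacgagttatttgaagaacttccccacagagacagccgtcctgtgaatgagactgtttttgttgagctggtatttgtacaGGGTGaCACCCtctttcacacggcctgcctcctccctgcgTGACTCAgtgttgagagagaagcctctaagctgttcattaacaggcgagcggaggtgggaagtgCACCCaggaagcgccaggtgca
Sprr1a: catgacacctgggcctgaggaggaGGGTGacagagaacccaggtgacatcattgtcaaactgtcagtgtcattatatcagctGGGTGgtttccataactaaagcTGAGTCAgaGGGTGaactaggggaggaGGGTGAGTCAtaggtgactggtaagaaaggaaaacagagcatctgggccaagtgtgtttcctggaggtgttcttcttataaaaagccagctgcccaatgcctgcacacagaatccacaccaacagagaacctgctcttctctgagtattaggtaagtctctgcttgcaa
Sprr1b: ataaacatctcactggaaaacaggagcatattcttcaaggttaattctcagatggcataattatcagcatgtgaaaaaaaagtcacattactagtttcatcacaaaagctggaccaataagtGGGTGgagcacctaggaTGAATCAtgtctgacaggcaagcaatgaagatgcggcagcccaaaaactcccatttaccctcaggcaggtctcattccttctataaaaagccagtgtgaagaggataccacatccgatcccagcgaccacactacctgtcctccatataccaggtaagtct
Ivl: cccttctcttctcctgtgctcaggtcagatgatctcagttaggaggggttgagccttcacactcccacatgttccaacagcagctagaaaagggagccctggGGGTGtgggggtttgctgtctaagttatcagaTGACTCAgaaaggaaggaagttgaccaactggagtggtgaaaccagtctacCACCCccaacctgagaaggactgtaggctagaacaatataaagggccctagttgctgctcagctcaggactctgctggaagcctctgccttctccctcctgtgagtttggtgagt
Of the 10 genes 8 had a window in the table, 9 windows in all since Tgm1 has 2, and Evpl and Ppl are named only. TGANTCA, searched on both strands, was in 6 of the 9 windows, those of Sprr1a, Sprr1b, Scel, Ivl, Lor and Flg, and it was in 7.8% of all 32851 windows of the same length. Sprr1a held 2 such matches, at -146 and -116 from the start, and the one nearer to the start overlaps a match of the other motif. That motif, CACCC or GGGTG, was in 8 of the 9, Lor being the exception, and in 57.5% of all windows. The TGANTCA core was present at Scel and Sprr1a, the largest differences, and also at Sprr1b, Ivl, Lor and Flg, whose differences were small. A match of letters is a description and says nothing of binding.

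Among the 10 genes, Scel had the largest difference between the diets. Scel probe set 1422837_at stood at -0.71 and -0.76 in SPI, against 0.88 and 0.71 in CAS. The SPI arrays were 0.046 apart and the CAS arrays 0.17 apart, so the difference of -1.53 (SE 0.091) was far larger than the gap within either diet. It ranked 99 from the bottom of 45037 probe sets. Leaving out any 1 array moved it between -1.62 and -1.45. The other Scel probe set, 1459426_at, disagreed. It read -0.13 and 0.061 in SPI, against 0.13 and -0.061 in CAS, and the groups overlapped with a difference of -0.07 (95% interval -0.35 to 0.21). The digits of the deposited values place 1422837_at in the log2 level class 8 to 16 and 1459426_at in the class 4 to 8. Only the probe set of the higher class showed the difference, and whether the class bears on this was not tested.

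The small proline-rich proteins are short cross-bridging proteins that stressed and regenerating epithelia also make. Sprr1a read -0.50 and -1.06 in SPI, against 0.50 and 0.85 in CAS. Both SPI arrays lay below both CAS arrays, but the arrays of a diet were further apart than for Scel, by 0.56 in SPI and 0.35 in CAS. The difference was -1.45 (SE 0.22, rank 115 from the bottom), and it ran from -1.73 to -1.17 when 1 array was left out. Its near relative Sprr1b read -0.19 and 0.18 in SPI, against 0.15 and -0.15 in CAS, with a difference of -0.01 (95% interval -0.43 to 0.42). Sprr1b was in the level class 2 to 4, while Sprr1a was in the class 8 to 16. Whether the level class bears on the contrast between these genes was not tested.

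Involucrin and loricrin, the classical precursors of the early and the late envelope, had small differences upward, none of which passed as deposited. Ivl probe set 1422222_at read 0.027 and 0.17 in SPI, against -0.034 and -0.027 in CAS, a difference of 0.13 (95% interval -0.088 to 0.34). Its other probe set, 1439878_at, read 0.026 and -0.026 in SPI, against 0.049 and -0.26 in CAS, so the groups overlapped around a difference of 0.10 (95% interval -0.20 to 0.41). The Lor probe set 1448745_s_at, of a type that can bind related transcripts, read 0.096 and 0.13 in SPI, against -0.35 and -0.096 in CAS. This was the largest difference upward of the 15, 0.34 (95% interval 0.063 to 0.61), and it did not pass over all probe sets as deposited. With hybridization control centring it was 0.51 and passed as higher (limma adjusted p = 0.0384), as did 2552 of all probe sets. Lor 1420184_at read 0.32 and -0.012 in SPI, against 0.012 and -0.16 in CAS, with a difference of 0.23 (95% interval -0.12 to 0.58). Lor 1420183_at read -0.0029 and 0.011 in SPI, against 0.0029 and -0.069 in CAS, and had a difference of 0.04. Both of these overlapped between the diets, and neither has a transcript accession in the annotation. Flg, which packs keratin filaments, read -0.0065 and 0.028 in SPI, against 0.0065 and -0.071 in CAS. Its level class was the lowest, under 2, and its difference was 0.04.

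The enzymes and the scaffold were mixed. Tgm1, the membrane-bound transglutaminase that starts cross-linking, read -0.17 and -0.070 in SPI, against 0.12 and 0.070 in CAS. Both SPI arrays lay below both CAS arrays, by a small difference of -0.21 (95% interval -0.42 to -0.0098). Tgm3, a soluble transglutaminase of late differentiation and the hair follicle, had both SPI arrays above both CAS arrays on probe set 1421355_at, with 0.21 and 0.037 in SPI, against -0.25 and -0.037 in CAS (difference 0.27, 95% interval -0.020 to 0.55). Its second probe set, 1440150_at, stood near 0 in the mean, with SPI arrays at 0.13 and -0.13 on either side of CAS arrays both at 0. Neither enzyme passed over all probe sets as deposited. With hybridization control centring Tgm3 1421355_at stood at 0.44 and passed as higher (limma adjusted p = 0.0497), as did 2552 of all probe sets.

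Envoplakin and periplakin are known to form a complex. Evpl read -0.30 and -0.68 in SPI, against 0.32 and 0.30 in CAS, so both SPI arrays lay below both CAS arrays. Its difference was -0.80 (SE 0.14), rank 511 from the bottom, and between -0.99 and -0.61 with 1 array left out. Ppl read -0.030 and 0.030 in SPI, against 0.30 and -0.078 in CAS, with a difference of -0.11 (95% interval -0.47 to 0.25). The CAS arrays of Ppl were 0.38 apart and the SPI arrays lay between them. Whether Evpl differs from Ppl in its response was not tested, since the genes were picked with these values known.

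Over the 15 probe sets, both SPI arrays lay below both CAS arrays in 4 (Sprr1a, Scel 1422837_at, Tgm1 and Evpl), above them in 3 (Ivl 1422222_at, Lor 1448745_s_at and Tgm3 1421355_at), and the groups overlapped in 8. Among all probe sets 48.4% did not overlap, 20.5% with SPI below and 27.9% with SPI above. Of the 10 genes, 4 had both SPI arrays below, 2 above and 4 overlapping, where 51.5% of all genes did not overlap, 22.2% with SPI below and 29.4% with SPI above. The median difference of the 15 was 0.00065, against 0.023 for all probe sets. The 4 with SPI below were all in the level class 8 to 16, which held 6 of the 15, beside 6 in the class 4 to 8 and 3 below it. That class is coarse, can read too high by chance, and does not establish expression, since 12 of 43 olfactory receptor probe sets also reached 4 or above (95 of 101 ribosomal protein probe sets did). With arrays centred on the hybridization controls Scel 1422837_at, Sprr1a and Evpl stayed lower in SPI at -1.36, -1.28 and -0.63, Tgm1 stood at -0.04, and the small negative differences of Sprr1b, Ppl and Scel 1459426_at became positive. Fewer cells of a type and less RNA per cell cannot be told apart in such bulk samples.

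The 5 genes with array patterns nearest to Scel 1422837_at, by Euclidean distance over the 4 arrays among 25608 probe sets at level 4 or above, were Gbp2 (distance 0.068), Igtp (0.078), Sbsn (0.11), Tmem87a (0.12) and Abca8a (0.13). Gbp2 is an interferon-induced guanylate-binding protein, Igtp an interferon-induced GTPase, Sbsn is suprabasin, an epidermal secreted protein, and Abca8a is a lipid transporter. Their differences lay between -1.60 and -1.43. The choice by distance over the same 4 values forces them to be near that of Scel, so this supports nothing.

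Sprr1a, Sprr1b, Ivl, Lor and Flg sit together on chromosome 3 in the epidermal differentiation complex, a cluster of genes that epidermis switches on in concert. In the annotation 1 gene, Sprr3, lies between Sprr1b and Sprr1a, and 1 gene, Sprr4, between Sprr1a and Ivl. Sprr3 was at 0.08 on the log2 scale, and Sprr4 had no value. Of 44 other genes of the complex, 29 had a value on a probe set of 1 gene, and 0 of the 29 passed in limma with Benjamini-Hochberg adjustment (4 higher and 0 lower at an unadjusted p under 0.05, and 0 passed with an ordinary t statistic). Over all 18193 genes 2.94% passed as lower and 0.83% as higher in SPI. The 29 genes ranged from -0.23 for Sprr2f to 0.38 for Lce3f, with a median of 0.07, against 0.022 for all genes. The Sprr2a genes were not among the 29, because their probe sets match more than 1 gene. Among the 34 genes of the complex placed in order, the 33 other than Sprr1a lay between -0.23 and 0.38, and Sprr1a stood at -1.45.

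**Figure D2:**
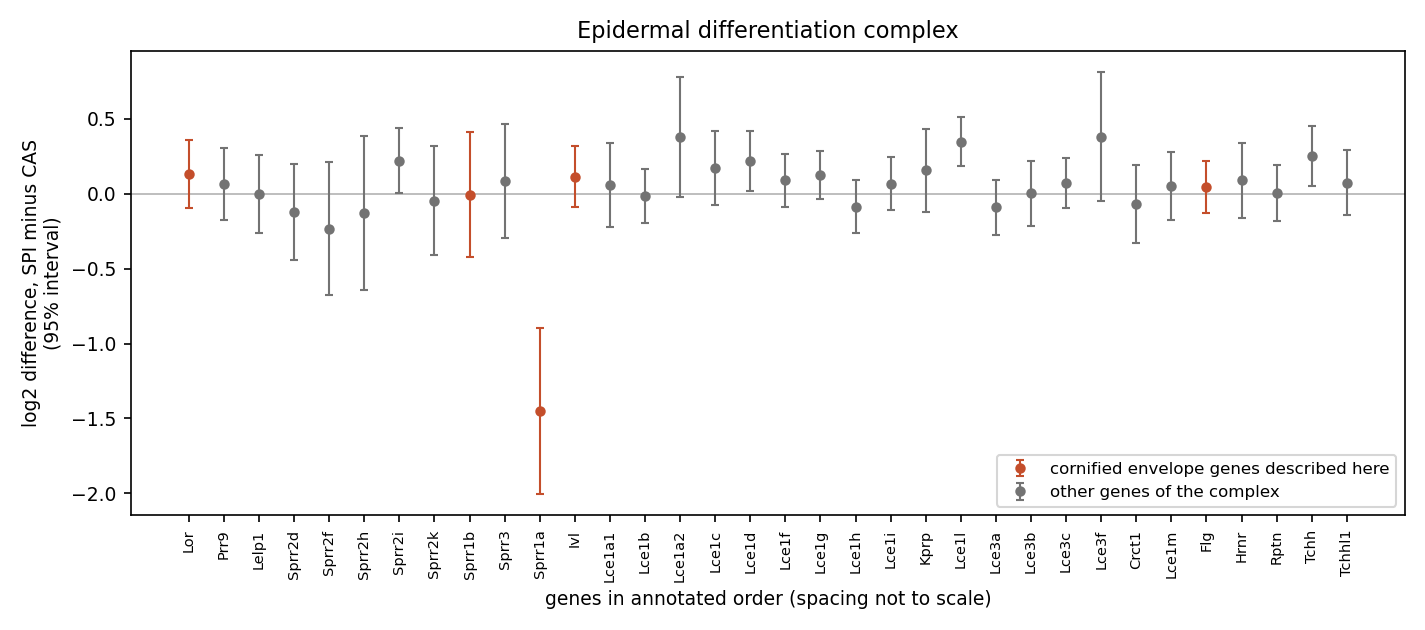
Log2 difference SPI minus CAS of each measured gene of the epidermal differentiation complex (y axis, 1 value per gene, with its 95% interval from limma, n = 2 arrays per diet), in annotated order along the chromosome with equal spacing. Sprr1a, at -1.45, stands below the 33 others, which lie between -0.23 and 0.38. Of the 29 genes that are not members, 13 reach level class 4 or above.

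Outside the complex, 20 genes of other envelope proteins and transglutaminases were measured, of which 6 fell in SPI, 0 rose and 14 did not pass (6 lower and 2 higher with hybridization control centring). The share of all 18193 genes to set beside this and each later list is 2.94% lower and 0.83% higher. Dmkn (dermokine), a secreted protein of the upper epidermis, read -0.69 and -0.98 in SPI, against 0.72 and 0.69 in CAS, and was 2.91-fold lower (95% interval 2.39 to 3.54, limma adjusted p = 0.00722). Sbsn was 2.09-fold lower (1.77 to 2.47, adjusted p = 0.0109 in limma), and its 3 probe sets went the same way, from -0.92 to -1.52. Cnfn (cornifelin) was 1.64-fold lower and Eppk1 (epiplakin), which binds keratin filaments, 1.65-fold lower. The others that fell were Anxa1 and Jup, at -0.64 and -0.47. These 2 passed only as genes. Over all probe sets the limma adjusted p was 0.0707 and 0.0743 for the Anxa1 probe sets and 0.0771 for that of Jup. Tgm5, another epidermal transglutaminase, stood at -0.69 and did not pass, and Dsp (0.11) and Cstb (-0.07) were near 0. The median of the 20 was -0.12, against 0.022 for all genes.

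Of 12 keratins of stratified epithelium, 4 fell in SPI, 0 rose and 8 did not pass, with a median of 0.08 (3 lower and 1 higher with hybridization control centring). Among all genes 2.94% fell and 0.83% rose. Krt6a and Krt6b, which wounded and hyperproliferative epidermis induces, were 2.76-fold (95% interval 2.18 to 3.49, limma adjusted p = 0.0115) and 2.47-fold lower in SPI (adjusted p = 0.0109), although the near-identical genes may share signal. Krt6a read -0.61 and -0.94 in SPI, against 0.77 and 0.61 in CAS, and its 3 probe sets lay between -1.46 and -1.15. Krt80 was 1.89-fold lower and Krt4 1.38-fold lower. Over all probe sets a Krt4 probe set at -0.60 passed (limma adjusted p = 0.037). The other, at -0.32, did not (adjusted p = 0.159 in limma). Krt1, at 0.29, and Krt10, at 0.10, the keratins of the differentiating epidermis, did not pass, nor did Krt16 (0.07), the usual partner of Krt6.

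Enzymes of the cornification programme moved in part. Of 14 proteases and inhibitors 4 fell and 0 rose (3 lower and 1 higher with hybridization control centring). Asprv1, an aspartic protease that processes filaggrin, was 2.50-fold lower in SPI (95% interval 1.95 to 3.21, limma adjusted p = 0.0163), with -0.53 and -0.87 on the SPI arrays, against 0.72 and 0.53 on the CAS arrays. The membrane-anchored protease Prss8 was 1.57-fold, Tmprss13 1.46-fold and the inhibitor Spink5 1.41-fold lower. The only Spink5 probe set, in the level class 2 to 4, did not pass over all probe sets (limma adjusted p = 0.0593). Klk7, a kallikrein of shedding, was at 0.03 and Casp14 at -0.41, and neither passed. Of 14 barrier lipid genes 3 fell and 0 rose. They were the ceramide synthase Cers3 (2.33-fold lower, adjusted p = 0.029 in limma), the fatty acid hydroxylase Cyp4f39 (2.14-fold) and the glucosylceramide synthase Ugcg (1.72-fold). Abca12 and Alox12b stood at -0.13 and -0.16 and did not pass. The medians of the groups were -0.18 and -0.14.

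Among 23 regulators of keratinocyte terminal differentiation, 4 fell and 1 rose in SPI (3 lower and 3 higher with hybridization control centring). Ehf, an ETS factor of epithelia, was 1.99-fold lower (95% interval 1.62 to 2.46, limma adjusted p = 0.0219), reading -0.39 and -0.69 in SPI, against 0.52 and 0.39 in CAS. Hopx, Barx2 and Elf3 were lower at -0.86, -0.83 and -0.49. Prdm1, named after its value was seen, rose by 0.84 (adjusted p = 0.0354 in limma). Elf3 and Prdm1 passed only as genes, with a limma adjusted p of 0.0649 and 0.0604 over all probe sets. Klf4, which skin needs to form its barrier, was at 0.02 and Grhl3 at -0.12, and Trp63, the master factor of basal epithelium, at 0.38, and none of these 3 passed. The median was -0.05. These lists were written with earlier results of the same arrays known.

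**Figure D3:**
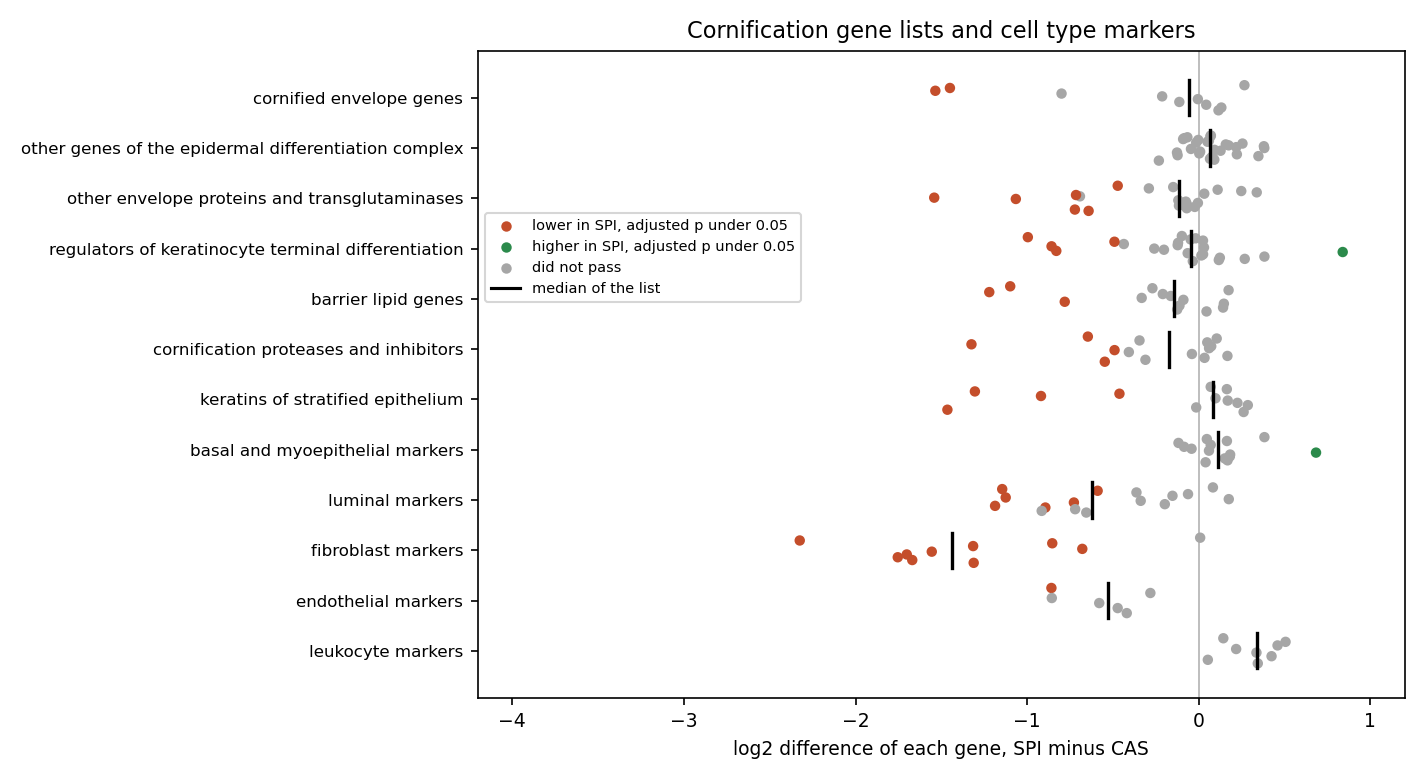
Log2 difference SPI minus CAS of each gene (points, 1 value per gene, n = 2 arrays per diet), by list, with the list median as a bar. Red marks genes lower and green genes higher in SPI at a limma adjusted p under 0.05. The other genes of the epidermal differentiation complex, of which 13 of 29 reach level class 4 or above, lie between -0.23 and 0.38. Single genes of the other cornification lists reach -1.54.

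Markers of other cell types moved on the same arrays, where 2.94% of all genes fell and 0.83% rose. Of 10 fibroblast markers 9 fell and 0 rose, with list medians of -0.79 and -0.71 on the SPI arrays, against 0.71 and 0.74 on the CAS arrays. Of 16 luminal markers 6 fell and 0 rose, with medians of -0.22 and -0.38 in SPI, against 0.28 and 0.25 in CAS, Krt18 at -0.73 and Krt8 at -0.36, the second of which did not pass. Of 6 endothelial markers 1 fell, Plvap, and 6 were lower at an unadjusted p under 0.05, with a median of -0.53. Of 8 leukocyte markers 0 passed in limma, and 5 were higher and 0 lower at an unadjusted p under 0.05, which 3775 of all 18193 genes reached. Of 14 basal and myoepithelial markers 1, Oxtr, rose and 0 fell, and Krt5 (-0.04), Krt14 (0.15) and Wnt1 (-0.09) did not pass. The Oxtr probe set in the level class 8 to 16 stood at 0.68 and passed. That in the class 4 to 8 stood at 0.30 and did not pass over all probe sets (limma adjusted p = 0.187). The centred values alone do not show whether any of these markers was absent. Lum, Col3a1, Col1a2 and Krt18, in the level class 8 to 16, stood at -2.32, -1.56, -1.31 and -0.73. Dcn, a fibroblast marker of the same class, stood at 0.008. That class is coarse and does not establish expression. Other Col1a2 probe sets stood at -1.36 in the class 4 to 8 and at 0.008 in the class under 2. The fibroblast, luminal and endothelial markers that fell did so on the same arrays as Scel and Sprr1a, and their part in the differences of Scel, Sprr1a and Evpl and of the listed genes was not tested.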

How the data were processed

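RNA from 4 samples was hybridized to Affymetrix arrays. The deposited log2 values were made with GCOS and RMA, per the submitters' processing notes, and the log base was taken from that method. Every probe set had a median of 0 over the arrays to within 5.0e-07, and this centring of the deposited log2 values is recorded in no label. Signal over background is therefore unknown, and the number of arrays limits precision. Of 45101 probe sets, 64 controls were left out. Of the rest 34945 had 1 gene in the platform annotation, 932 several and 9160 were not listed. Symbols were updated through gene IDs with a table of GRCm38.p6 (34741 matched). A level class came from the step size of the digits, with values of under 7 decimals ignored.

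Two-sided tests of SPI minus CAS were run in R 4.3.3 with limma 3.58.1 (eBayes after lmFit without a block, with 2 residual and 3.11 prior degrees of freedom for probe sets), with Benjamini-Hochberg adjustment over all probe sets, or over 18193 genes for lists, each gene being the mean of its probe sets in its highest level class. The fit was tested on simulated data. The members and lists were chosen with earlier results of these data known. Named were all members, up to 4 genes with the smallest p in each list, 6 genes tied to the sorted population, and the 5 nearest to the member with the largest difference. Centred values give only diet differences for these 6 genes and cannot check the sort. Other genes were named after their values were seen. Protein sequences were not used here. Alternatives were a replicate block, each array left out, 2 other centrings, a filter at level 4, an ordinary t statistic, a threshold of 0.1 and averaging every probe set of a gene.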

Additional observations from a re-analysis of the deposited data

How the results depend on the processing

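Of 15 member probe sets 1 passed, and of member genes 2. With arrays centred on the hybridization controls 5 member probe sets (2 higher, 3 lower), 4 member genes and 5 genes of the epidermal differentiation complex (all 5 higher) passed. It called 2 higher and 6 lower of the other envelope genes, 3 higher and 3 lower of the regulators, and 1 higher and 3 lower each of the proteases and inhibitors and of the keratins. Over all probe sets this centring gave 3290 calls, against 676 as deposited. Over all 18193 genes it gave 2721 (2211 higher and 510 lower), against 686 (151 higher and 535 lower). The higher calls in the lists are therefore not read as a result about the listed genes. With probe sets at level 4 or above 3 of 12 member probe sets passed, and 1197 of all. At a threshold of 0.1 there were 3 member probe sets and 1 gene of the complex, and 1579 of all probe sets and 1396 of all genes. With the replicate number as a block 1 member gene, 3 other envelope genes, 3 regulators and 1 protease or inhibitor passed, against 2, 6, 5 and 4 without it, and 79 of all probe sets and 299 of all genes. Same-numbered arrays of the diets did not deviate together (correlation -0.099 over probe sets), and no label pairs them. An ordinary t statistic called 0 in every list and among the members (1 of all probe sets, 6084 at an unadjusted p under 0.05). With 1 array left out, every count, for the members and for each of the 6 cornification lists, ranged from 0 to 0. A lone array then stands for its diet, is assumed to vary like the other diet, and leaves 1 residual degree of freedom fewer. Scel 1422837_at, Sprr1a and Evpl were lower in SPI with either other centring and with any 1 array left out, while the block, the ordinary t statistic and the level filter leave a difference as it is. With the hybridization control centring 10 of the 15 member differences moved by more than the spread between arrays, as did that of Tgm3 1440150_at without SPI replicate 1. With 1 array left out the differences of Sprr1b, Ppl, Scel 1459426_at, Ivl 1439878_at and Tgm3 1440150_at changed sign. The other total counts of calls stayed within 1.5 times.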
